A study of Mus musculus with 3 samples.

Results

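Mature V2R vomeronasal sensory neurons (VSNs) were taken from single-cell RNA-seq of the mouse vomeronasal organ (VNO), the chemosensory organ at the base of the nasal septum. The study used mice in which the Tfap2e product AP-2ε, a transcription factor, is switched on in mature VSNs, and the labels give 3 libraries with 1 library per group. The P10 control was OMPCre Heterozygous at postnatal day 10. The P10 mutant was OMPCreR26AP2e Double Heterozygous at the same age, and the 3-month mutant carried the same alleles in adults of 3 months. All animals were male on a C57 BL/6J 129P2/OlaHsd mixed background, all carried Cre recombinase at the olfactory marker protein gene Omp, and the mutants also carried a Cre-activated AP-2ε transgene at Rosa26. Cre driven by Omp acts in maturing and mature neurons of both families. The number of animals per library is not given in the labels, and all cells had been frozen before they were loaded. With 1 library per group, genotype at P10 and age in the mutants cannot be told apart from the library, and no test between groups was possible.

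Barcodes with 200 to 9000 genes and at most 10% mitochondrial UMIs (unique molecular identifiers, each marking 1 captured RNA molecule) were kept. A kept barcode was a mature V2R VSN when it held at least 3 UMIs of Calb2, Chga and Omp together, at least 5 UMIs of vomeronasal receptor genes of which at least 80% were Vmn2r, and at most 0.1% of its UMIs from Gap43 and Stmn2, genes of growing axons. The members were thus chosen by their counts of Calb2, Chga, Omp, Gap43, Stmn2, Vmn1r and Vmn2r, whose levels are a description only. The rule found 92 cells among 15711 kept barcodes of 27359 in all, 15 of them P10 control, 12 P10 mutant and 65 3-month mutant cells. The mirrored rule for Vmn1r found 315 mature V1R VSNs, with 152, 64 and 99 in the same order. A further 105 V2R cells (62, 32 and 11) exceeded the Gap43 and Stmn2 limit and served as a less mature comparison. Doublets were not called or removed, and 31 cells that met the maturity rule with both families mixed were left out.

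The VNO epithelium holds apical VSNs, which use V1R receptors with the G protein subunit Gαi2 (Gnai2), and basal VSNs, which use V2R receptors with Gαo (Gnao1). V2R receptors have a long extracellular ligand-binding domain and detect mainly peptides and proteins. A basal VSN usually pairs 1 selected receptor of the families A, B or D with a broadly used family C receptor (Vmn2r1 to Vmn2r7), and some basal VSNs also carry class Ib major histocompatibility proteins of the H2-Mv group. AP-2ε is normally made in basal VSNs and is part of the basal identity program.

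The sequences upstream of the start sites of 4 family C and H2-Mv genes are shown here, because these groups carry the clearest pattern among the members. Each is the 250 bases before the annotated start, 5′ to 3′ on the strand of the gene, from RefSeq on GRCm38.p6, and capitals mark TATAAA. They lie at chr3:64081392-64081641 (Vmn2r1, plus strand), chr3:64719603-64719852 (Vmn2r7, minus strand), chr17:36462330-36462579 (H2-M10.4, minus strand) and chr17:36772660-36772909 (H2-M10.5, plus strand).
Vmn2r1: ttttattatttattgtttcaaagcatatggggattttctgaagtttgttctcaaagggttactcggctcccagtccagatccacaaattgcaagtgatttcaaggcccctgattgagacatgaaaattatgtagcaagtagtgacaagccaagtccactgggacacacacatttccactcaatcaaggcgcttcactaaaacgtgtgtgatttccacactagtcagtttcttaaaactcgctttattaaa
Vmn2r7: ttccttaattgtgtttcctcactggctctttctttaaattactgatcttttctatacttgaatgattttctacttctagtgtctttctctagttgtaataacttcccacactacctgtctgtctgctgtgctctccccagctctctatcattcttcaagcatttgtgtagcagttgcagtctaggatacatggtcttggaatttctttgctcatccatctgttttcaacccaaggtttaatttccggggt
H2-M10.4: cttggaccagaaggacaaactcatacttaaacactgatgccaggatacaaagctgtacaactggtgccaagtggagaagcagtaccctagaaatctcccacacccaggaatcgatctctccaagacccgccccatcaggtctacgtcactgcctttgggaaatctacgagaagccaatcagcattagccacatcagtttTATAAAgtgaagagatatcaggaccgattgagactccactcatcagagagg
H2-M10.5: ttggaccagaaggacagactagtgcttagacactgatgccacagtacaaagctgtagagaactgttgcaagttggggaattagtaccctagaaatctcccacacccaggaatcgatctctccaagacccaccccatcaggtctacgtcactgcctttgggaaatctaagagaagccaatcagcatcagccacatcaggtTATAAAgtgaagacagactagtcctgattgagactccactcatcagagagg

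Over the 250 bases, Vmn2r1 was 58% to 60.4% identical to 5 family C promoters from Vmn2r2 to Vmn2r7, while those 5 were 56.4% to 99.2% identical among themselves. The 6 H2-M10 promoters were 76.8% to 91.6% identical to each other. TATAAA stood in 5 of 6 H2-M10 promoters (83.3%), in 1 of 6 family C promoters (16.7%), in 21.2% of 118 Vmn2r promoters and in 12.4% of all 32851 promoters in the table, counted on both strands of the 250 bases. On the strand of the gene, the TATAAA nearest the start began at −51 to −45 in those 5 H2-M10 promoters, counted in bases from the start. The AP-2 motif GCCNNNGGC, counted in the same way, was in 1 of 6 family C promoters, in 0 of 6 H2-M10 promoters, in 7.63% of Vmn2r promoters and in 13.7% of all promoters. A match describes the letters only.

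Libraries held 70074800 to 83870584 UMIs in all. The members held 357548 UMIs (P10 control), 381914 (P10 mutant) and 707232 (3-month mutant). Per cell, the 3-month members were shallower, with a median of 5062 UMIs against 21961 and 25447 at P10, and 26 of the 65 had under 2000 UMIs. There were 21 to 30 barcodes shared between pairs of libraries, and 0 of them were members. Some members held RNA of other cell types. Markers of non-neuronal cells exceeded 1% of UMIs in 2 of 15, 1 of 12 and 22 of 65 members. These were markers of gland, sustentacular, basal epithelial, erythroid, immune, stromal, glial and endothelial cells together. Gland genes summed to 554, 57.6 and 2049 CPM (UMIs of a gene per 1000000 UMIs of the pooled members). Over all kept barcodes they summed to 9214, 4725 and 20581 CPM. Without the members over 1%, 402 genes in place of 418 were past 2-fold between the P10 libraries. Between the mutants it was 950 in place of 979. The part of gland genes on their own in the results was not tested.

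Basal markers that the rule did not use were found in most members of each library. Gnao1 had a UMI in 14 of 15 P10 control members, in 9 of 12 P10 mutant members and in 44 of 65 members at 3 months. Thinned to 1000 UMIs, 14.3%, 16.7% and 40.4% of members had a Gnao1 UMI, against 1.97%, 1.31% and 1.43% of immune, stromal, glial and endothelial cells, whose median depth was 6015, 8133 and 5766 UMIs. At least 3 of Gnao1, Stbd1, Calr4 and Gm36028 were seen in 15, 10 and 55 members. V1R cells held these genes as well. After the same thinning, 0.680%, 7.81% and 0% of V1R cells had a Gnao1 UMI. In the thinned P10 mutant, Stbd1 was in 50% of members and 37.5% of V1R cells, and Gm36028 in 50% and 26.6%. Calr4 was there in 25% of members and 31.25% of V1R cells. Detection of these genes alone thus does not separate members from V1R cells in that library. The rule admits cells on few receptor UMIs, and receptor RNA can also reach a droplet as free RNA. Vmn2r genes made up at least 0.1% of UMIs in 11 of 15, 6 of 12 and 61 of 65 members, and the main comparisons between libraries were repeated under this stricter limit, which was added after the data had been seen. There were 1, 3 and 0 members with no UMI of Omp or Chga, led by 4 to 9 UMIs of Vmn2r35, Vmn2r36 or Vmn2r95 among 41501 to 87130 UMIs. At the edges of the rule, the receptor counts just inside were 6 UMIs in the P10 control and 5 in the 3-month mutant, against 3 to 4 just outside, and the cells nearest outside the Gap43 and Stmn2 limit held 0.105% to 0.149% of their UMIs from these genes in the mutants. The lowest Vmn2r shares inside were 83.3%, 83.3% and 87.5%, while the highest shares just outside were 60%, 66.7% and 71.4%.

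The V2R share of mature VSNs differed between libraries. Of the mature cells that were V1R, V2R or mixed, mature V2R VSNs made up 8.33% of 180 in the P10 control (exact binomial 95% interval 4.74% to 13.4%), 13.6% of 88 in the P10 mutant (7.25% to 22.6%) and 38.2% of 170 in the 3-month mutant (30.9% to 46.0%). The intervals of the P10 libraries overlapped, and the 3-month interval lay above both. Intervals here and below cover counting error only, neither the spread between animals nor between libraries. Among V2R cells, the part below the Gap43 and Stmn2 limit was 19.5% of 77, 27.3% of 44 and 85.5% of 76. Among V1R cells it was 46.8% of 325, 48.5% of 132 and 89.2% of 111. Thinning each cell to 1000 UMIs gave V2R shares of 8.66%, 15.6% and 48.8%, and the receptor family at 0.1% of UMIs or more gave 7.97%, 14.6% and 41.8%. With the 5% mitochondrial limit of the study, the P10 order turned, with 17.9% of 56 cells in the control and 16.7% of 24 in the mutant, against 42.2% of 90 at 3 months. A change in numbers of cells and a change in how many cells pass the rule cannot be told apart here.

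Basal identity genes were high in control and 3-month members and lower in the pooled P10 mutant members. Gnao1 stood at 341 CPM (95% Poisson interval 283 to 407) in the P10 control, at 86.4 (59.5 to 121) in the P10 mutant and at 485 (435 to 539) in the 3-month mutant. The V1R cells of the same libraries had 13.4, 40.1 and 22.2 CPM of Gnao1. Thus Gnao1 was 25.5, 2.15 and 21.9 times as high in V2R as in V1R cells. Stbd1, a glycogen-binding protein of the endoplasmic reticulum (ER), had 1921, 702 and 3463 CPM in the members and 399.6, 545 and 859 in V1R cells. Calr4, a calreticulin family chaperone, had 1155, 408 and 1322 CPM against 269, 316 and 388. Gm36028, an uncharacterized gene, had 1958, 495 and 2117 CPM against 62.3, 310.2 and 452. All 4 genes were above the V1R level in each library, and by the least in the P10 mutant.

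Of the apical genes, Gnai2 and Meis2 were highest in the P10 mutant members. Gnai2 stood at 103 CPM (72.9 to 143) in control members, at 1121 (1017 to 1232) in P10 mutant members and at 297 (258 to 340) at 3 months, against 1726, 1018 and 1213 in V1R cells. Its V2R over V1R ratio was 0.0600 in the control, 1.10 in the P10 mutant and 0.245 at 3 months. Meis2, a homeobox transcription factor of apical VSNs, had 106, 288 and 93.3 CPM in the members and 586, 484 and 456 in V1R cells. With the receptor family at 0.1% of UMIs or more, Gnai2 was 84.7, 1590 and 92.9 CPM in V2R and 2499, 1892 and 1485 in V1R cells, and Meis2 was 72.6, 259.8 and 23.2 CPM against 709, 707 and 479. In the V2R cells above the Gap43 and Stmn2 limit, Gnai2 was 242, 518 and 817 CPM. A Gnai2 UMI was seen in 37 of 62, 17 of 32 and 5 of 11 of these cells. In each library 1 cell held much of the Gnai2 (63.2%, 34.8% and 43.4% of its UMIs), so the pooled values lean on few cells.

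Tfap2e checked the genotype. It had 117 CPM (84.7 to 159) in control members, 233 in P10 mutant members and 204 in 3-month members, and 0.477, 290.3 and 177 CPM in V1R cells. In the control, Tfap2e was therefore almost restricted to V2R cells, while in both mutants V1R cells carried it at a level near that of the members. Reads of the transgene and of endogenous Tfap2e cannot be told apart. Tfap2e was also found outside neurons in the mutants, with 0.752, 151 and 35.9 CPM in immune, stromal, glial and endothelial cells together. Among cells thinned to 1000 UMIs, 0% of 14, 16.7% of 12 and 25% of 52 members held a Tfap2e UMI, and 20 other draws gave 0% to 21.4%, 8.33% to 41.7% and 7.69% to 23.1%, so no order between libraries is read from them. Of the other cells 0.328%, 5.98% and 1.88% did. The plot of levels by library sets these genes side by side.

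**Figure D1:**
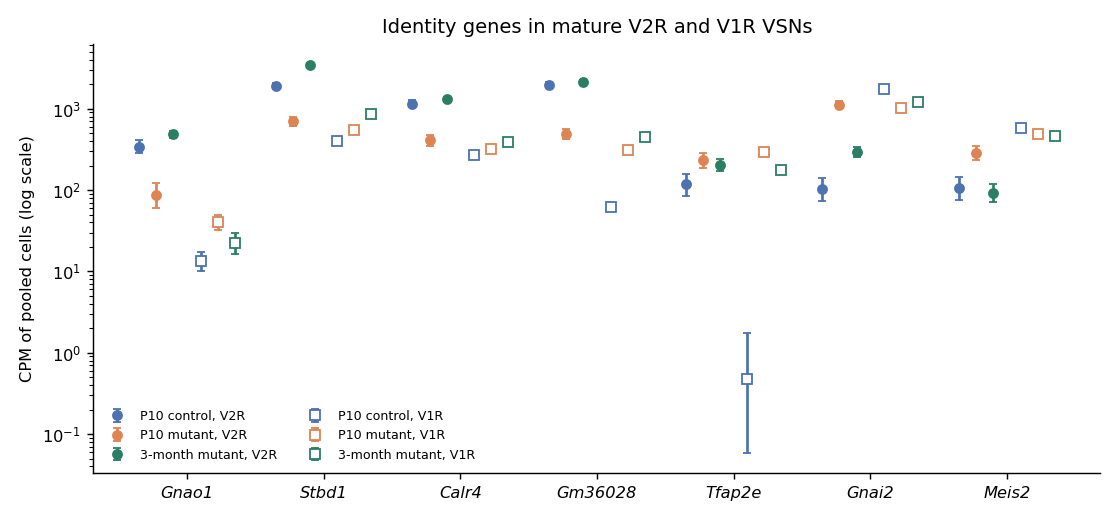
Levels of 7 genes in CPM (log axis) for mature V2R VSNs (filled circles) and mature V1R VSNs (open squares) in the 3 libraries, with bars for the exact 95% Poisson interval. Gnao1 and Gm36028 are far above V1R cells in the P10 control and closest to them in the P10 mutant, Gnai2 reaches 1121 CPM in P10 mutant members, and Tfap2e in V1R cells is at 0.477 CPM in the control and at 290.3 in the P10 mutant.

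The Gnai2 of the mutant members was not spread evenly. Cells with Gnai2 and Meis2 together at 0.2% of UMIs or more, and at least 3 such UMIs, numbered 0 of 15 in the P10 control, which allows a share of up to 20%, 4 of 12 in the P10 mutant (33.3%, interval 9.92% to 65.1%) and 3 of 65 at 3 months (4.62%, 0.962% to 12.9%). The exact interval of the P10 control was 0% to 21.8% and overlapped that of the P10 mutant. With 1 library per group and this number of cells, the difference between the P10 libraries was not tested. The highest share below the limit was 0.0637%, 0.0620% and 0.122%, while the cells above it had 0.334% to 0.686% in the P10 mutant and 0.226% to 0.351% at 3 months. Among V1R cells 82 of 152, 23 of 64 and 31 of 99 passed the same limit. Among the less mature V2R cells 1 of 62, 4 of 32 and 3 of 11 did.

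Several of these Gnai2-rich cells had strong V2R expression and almost no V1R RNA. A P10 mutant cell with 289 UMIs of Vmn2r122 held 74 UMIs of Gnai2, 5 of Gnao1 and 21 of Tfap2e, with 0 Vmn1r UMIs. Another with 109 UMIs of Vmn2r124 held 75 of Gnai2, 1 of Gnao1 and 19 of Tfap2e. A 3-month cell with 164 UMIs of Vmn2r122 held 36 of Gnai2, 2 of Gnao1 and 5 of Tfap2e. In these cells the receptor belonged to the basal family while the G protein subunit was mainly the apical one. The pattern was not confined to the mutants. A less mature V2R cell of the P10 control held 109 UMIs of Vmn2r67, 158 of Gnai2, 0 of Gnao1 and 0 of Tfap2e, with 1 Vmn1r UMI.

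The remaining Gnai2-rich members had weaker V2R signals. In the P10 mutant, a cell with 8 UMIs of Vmn2r110 also held 15 UMIs of Fpr-rs3, a formyl peptide receptor used by a small set of apical VSNs, with 116 UMIs of Gnai2. A further P10 mutant cell had 10 UMIs of Vmn2r7 and no other V2R lead, with 86 UMIs of Gnai2. At 3 months, cells with 2 and 8 UMIs of Vmn2r110 held 15 and 25 UMIs of Fpr-rs3, 53 and 98 of Gnai2 and 0 of Gnao1. These 3 Fpr-rs3 cells entered the members on few Vmn2r UMIs. When Vmn2r genes had to reach 0.1% of UMIs, 2 of 6 P10 mutant members and 1 of 61 members at 3 months remained above the Gnai2 and Meis2 limit.

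**Figure D2:**
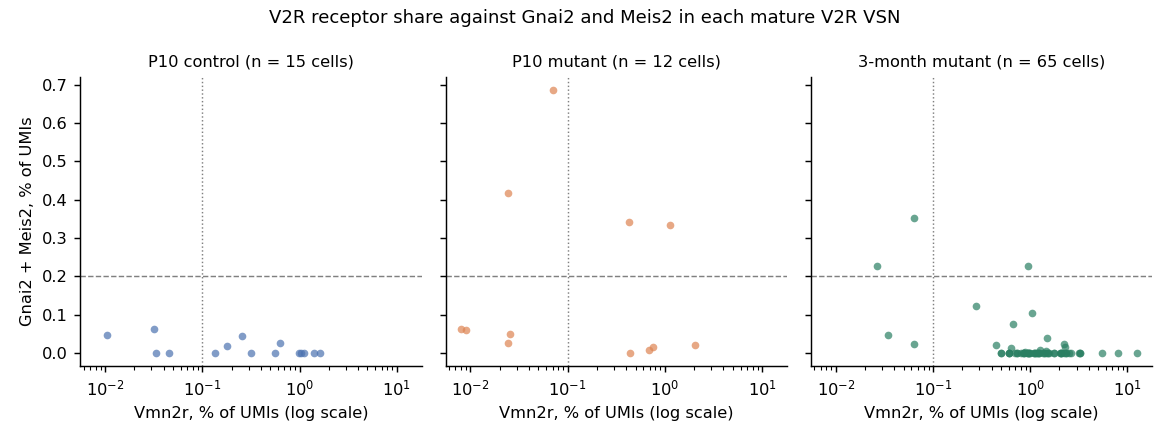
Each point is a mature V2R VSN, with Vmn2r UMIs as a percent of the cell's UMIs on the x axis (log scale) and Gnai2 plus Meis2 UMIs as a percent on the y axis, 1 panel per library. The dashed line is the 0.2% limit for Gnai2 and Meis2 and the dotted line the 0.1% limit for Vmn2r; 0 of 15, 4 of 12 and 3 of 65 cells lie above the dashed line.

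Pooled over cells, the 4 Gnai2-rich P10 mutant members had more Omp and Stbd1 than the other 8. In the 4 cells, Omp was at 564 CPM and Stbd1 at 1784, against 59.8 and 331 in the other 8, and Gnao1 was at 92.3 and 84.4 CPM. The other 8 were uneven. Gnao1 was at 437, 589 and 309.6 CPM in 3 of them, against 341 in the pooled control, at 23.0 and 24.1 CPM in 2, and at 0 in 3. The pooled values of these 8 lean on 3 cells of 41501, 66930 and 87130 UMIs that held no Omp or Chga. At 3 months, the 62 cells below the limit had 557 CPM of Gnao1 and 37.6 CPM of Gnai2, so 3 cells held most of the Gnai2 of all 65 members.

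The P10 mutant members were compared with the P10 control members by the ratio of pooled CPM, with a conditional exact interval and a description of genes past 2-fold among those with at least 50 UMIs in both pools together. Of the 7 basal identity genes with enough UMIs, Gnao1, Stbd1, Calr4, Gm36028 and Cnpy1 were more than 2-fold lower, at a background of 16.2% of 2585 genes past 2-fold, 7.78% lower and 8.39% higher. Gnao1 was 0.253 times the control level (0.167 to 0.375), Gm36028 0.253 times (0.214 to 0.297), Stbd1 0.365 times (0.316 to 0.421), and Cnpy1, an ER protein of the canopy family, 0.241 times (0.161 to 0.352). Gnai2 was 10.8 times as high (7.73 to 15.6), Meis2 2.71 times (1.86 to 4.03) and Tfap2e 1.98 times (1.36 to 2.94). Of 4 apical genes with enough UMIs, Kirrel2, an adhesion protein, was past 2-fold lower (299 against 107 CPM), although it was 343 and 416 CPM under the stricter Vmn2r limit. Presynaptic genes were lower in 5 of 9 cases, among them Slc17a6, the vesicular glutamate transporter, and Snap25, a vesicle fusion protein. Of 5 granin and secretory genes, Scg3 and Cpe were past 2-fold lower and Pam, a peptide-amidating enzyme, was past 2-fold higher. Chga was lower as well, but the rule used it.

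Most of these differences shrank in the members with Vmn2r at 0.1% of UMIs or more. In that subset, with 11 control and 6 mutant cells, 6.67% of 1230 genes were past 2-fold (1.54% higher, 5.12% lower). Gnao1 was 451 CPM in the control and 291 in the mutant, Stbd1 2189 and 1798, Calr4 1496 and 1237, and Gm36028 2439 and 1496. Of 6 basal identity genes 0 were past 2-fold lower, and of 7 presynaptic and 4 granin and secretory genes 0 were past 2-fold either way. Tfap2e was 145 CPM in the control and 509 in the mutant, and Gnai2 was 84.7 and 1590 CPM. Most of both lay in the Vmn2r122 and Vmn2r124 cells, which held 21 and 19 of the 49 Tfap2e UMIs and 74 and 75 of the 153 Gnai2 UMIs of the 6 mutant cells. Over all members but the Gnai2-rich ones, Tfap2e was 155 CPM in the P10 mutant (112 to 208) and 117 in the control (84.7 to 159), with overlapping intervals.

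Other genes with different levels in the stricter subset were the immediate early genes Fos, Fosb, Junb and Atf3, transcription factors that respond to activity and to dissociation, which were past 2-fold lower in the P10 mutant (4 of 6 with enough UMIs). Over all members this was not so: of 10 immediate early genes 0 were past 2-fold lower and Egr3 and Arc were higher, with Atf3 at 1301 CPM in the control and 1610 in the mutant and Fosb at 512 and 516. B2m, the light chain of class I and class Ib molecules, was 677 CPM in the control and 197 in the mutant. The G protein subunits Gng13 and Gng2 were past 2-fold higher. Hspb1, a small heat shock protein, was higher in the P10 mutant over all members and lower in the stricter subset, so no direction is given for it. By the rule for named genes, the differences over all members also included Apmap (0.228 times), Plac8 (0.199), Gem (0.178) and Serpine2 (0.331) lower, and Mia2 (1.93 times, 1.05 to 3.67) and Rbis (1.80, 1.11 to 2.99) higher but within 2-fold. Tmbim6, which the same rule named, was 1.19 times as high with an interval that covered 1 (0.998 to 1.42).

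From P10 to 3 months in the mutant, basal identity and H2-Mv genes were higher, and so were the family C receptors, whose Vmn2r counts the rule used. Of 10 basal identity genes, 8 were past 2-fold higher and Smchd1 was lower, at a background of 26.7% of 3668 genes past 2-fold, 14.9% higher and 11.8% lower. That balance turned with the scaling: 548 genes were higher and 431 lower in pooled CPM, 350 and 640 by the mean over cells, and 420 and 504 after division by the median ratio (0.13 on the log2 scale). Gnao1 was 5.61 times as high (3.92 to 8.29), Stbd1 4.93 times (4.35 to 5.62), Gm36028 4.28 times and Robo2 5.06 times. Gnai2 was 0.265 times the P10 level (0.224 to 0.313), Meis2 0.324 times, and Tfap2e 0.874 times (0.666 to 1.15). All 7 family C receptors and all 6 measured genes of the H2-Mv list, including B2m, were past 2-fold higher. The family C values are a description only: all Vmn2r genes together gave 950 of 381914 UMIs in the P10 mutant and 9165 of 707232 at 3 months. The H2-Mv genes gave 18 UMIs in the P10 mutant, all in 1 of 12 members, and 1293 in 39 of 65 members at 3 months. Members of the Vmn2r2 to Vmn2r7 class, described below, numbered 2 and 30. Of 12 presynaptic genes, 10 were higher, among them Rab3c (3.15 times) and Syp (3.24 times), both proteins of synaptic vesicles.

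With Vmn2r at 0.1% of UMIs or more, 6 P10 mutant and 61 cells at 3 months were left, and 14.7% of 2406 genes were past 2-fold (9.73% higher, 4.99% lower). Stbd1 (1798 against 3904 CPM), Cnpy1 (260 against 609) and Rab3c were still past 2-fold higher at 3 months, while Gnao1 was 291 and 569 CPM and Calr4 1237 and 1501. Only Rab3c of 10 presynaptic genes was past 2-fold. The family C receptors Vmn2r3 to Vmn2r7 and H2-M10.1, H2-M10.4, H2-M10.5, H2-M10.6 and B2m remained higher. Tfap2e was lower, at 229 against 509 CPM, and Gnai2 was lower, at 92.9 against 1590. Without the Gnai2-rich members, Tfap2e was 220.5 CPM at 3 months and 155 in the P10 mutant, so its direction turned.

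Some of the largest differences at 3 months, though not all, involved genes of other cells. Obp2a, an odorant-binding protein of nasal glands, was 15.7 CPM in P10 mutant members and 1345 at 3 months. Igkc, an immunoglobulin light chain of plasma cells, was at 0 UMIs in the P10 mutant and at 324 CPM at 3 months, at least 41.2-fold higher. Gm42418, a transcript that overlaps ribosomal RNA repeats, was 1432 and 38057 CPM. AY036118 and Lars2, named by the same rule, were 21.2 and 12.4 times as high at 3 months. The 3-month counts may come from another version of the counting software, as described below, and its part in these values was not tested. Gland markers as a list moved with Obp2a, at 57.6 and 2049 CPM in the members and 4725 and 20581 CPM over all kept barcodes. Sphkap, an anchoring protein for protein kinase A, had 1 UMI in the P10 mutant and 85 at 3 months (ratio 45.9, interval 8.02 to 1834). Among genes lower at 3 months by the naming rule were Ctbp1 (0.363 times), Ppp1r14b (0.511) and Rpl10 (0.751).

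V2R and V1R members were compared within libraries by edgeR's quasi-likelihood test on counts pooled per library and class, with the library as a block, which treats the 3 libraries as replicates although their genotypes and ages differ. Of 10337 genes tested, 1 passed a Benjamini-Hochberg adjusted p of 0.05, a background of 0.00967%. That gene was Robo2, the axon guidance receptor that directs basal axons in the accessory olfactory bulb. Robo2 had 92.3, 20.9 and 106 CPM in V2R members and 1.67, 0.882 and 3.17 in V1R cells, with no overlap, and was higher by 5.22 on the log2 scale (SE 0.35, adjusted p = 0.00738). There were 1791 genes at an unadjusted p under 0.05, and DESeq2 called 188 genes. In simulated data the method found 7 of 100 genes changed 2-fold, so a gene that was not called may still differ. The Robo2 call depended on which libraries entered, with an adjusted p of 0.0594 by edgeR without the P10 control, where H2-M10.3 was the gene called, and of 0.177 without the 3-month mutant. Without the P10 mutant, 1007 genes were called, Robo2 among them. The other genes of smallest adjusted p did not pass (0.122 to 0.145 by edgeR). Their log2 values included 5.49 for H2-M10.3, 3.38 for Tppp3, 2.13 for Sdf2l1 and 1.63 for Nhlh2, a neuronal transcription factor, and −3.86 for Lcn2, an iron-carrier protein of neutrophils and epithelia, −2.29 for Igfbp7 and −1.38 for Fos.

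With the receptor family at 0.1% of UMIs or more in both classes, 11, 6 and 61 V2R and 123, 35 and 82 V1R cells remained, and 596 of 8174 genes passed (7.29%), with 155 higher in V2R cells (1.9%) and 441 lower (5.4%). Of the 11 basal identity genes 6 were higher: Robo2 by 5.27, Cnpy1 by 4.46, Gnao1 by 4.01, Gm36028 by 2.51, Stbd1 by 1.38 and Calr4 by 1.37 on the log2 scale. Of 9 apical identity genes, 5 were lower and Plxna1 was higher. The lower ones included Gnai2 (−3.06, SE 0.77, adjusted p = 0.0491 by edgeR), Meis2 (−3.05) and Nrp2 (−1.93), the semaphorin coreceptor of apical axons. Tfap2e did not pass (1.33, SE 0.95, adjusted p = 0.497 by edgeR), with V1R cells of both mutants carrying it.

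ER chaperones and folding factors were mostly higher in V2R cells of the same subset. Of 25 genes, Calr4 of the basal list among them, 14 were higher and 2 lower, with a median of 0.96 against −0.00 over all tested genes. Sdf2l1, a cofactor of the ER chaperone system, was higher by 2.54 (SE 0.19, adjusted p = 0.00162 by edgeR), Manf, a secreted ER stress protein, by 1.76, and Hspa5, the main ER chaperone BiP, by 1.49. Creld2 (2.14), Dnajc3 (1.65) and Hsp90b1 (1.04) were higher as well. The genes that were lower were Calr, the common calreticulin (−2.18, SE 0.30, adjusted p = 0.00543 by edgeR), and Pdia4, a disulfide isomerase (−3.09). V2R cells thus held more Calr4 and less Calr than V1R cells in that subset. In the fit over all members, 0 of the 25 were called by edgeR, with a median of 0.76.

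**Figure D3:**
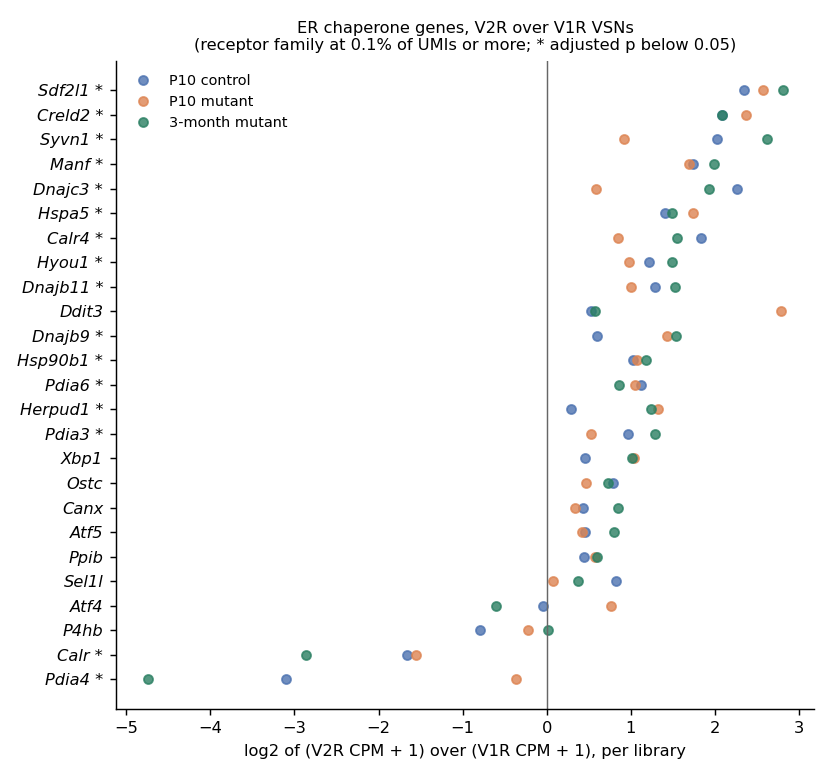
Log2 ratio of V2R over V1R CPM (1 CPM added to both) for 25 ER chaperone and folding genes in each library, over cells with the receptor family at 0.1% of UMIs or more, with an asterisk where the adjusted p was under 0.05 by edgeR. Of the 25, 14 were higher and 2, Calr and Pdia4, lower in V2R cells.

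Other lists differed in the same subset. Of 10 immediate early genes 6 were lower in V2R cells, among them Arc (−3.61), Ier2 (−3.04), Fos (−1.57) and Egr1 (−1.43). Of 19 transduction genes, Gnao1, Gng8 (0.74) and Homer2 (2.19), a postsynaptic scaffold protein, were higher, and Gnai2, Gnb2 (−1.97) and Gng2 (−3.34) lower. Presynaptic genes were mostly not called, with Rab3b (1.64) and Slc17a6 (1.06) higher of 18. In axon guidance and adhesion, Robo2, Pcdh9 (1.87), Sema3a (1.46) and Plxna1 (1.00) were higher and Ncam2 and Nrp2 lower of 19. Tppp3, a tubulin-binding protein, was higher by 4.45.

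Receptor choice was narrow in most members. Vmn2r genes gave 1528, 950 and 9165 UMIs in the members of the 3 libraries, with a median of 41 per cell in the P10 control and again at 3 months. The 12 P10 mutant members were lower, with 6 to 290 UMIs each and 10 or fewer in 6 of them. A leading receptor outside family C, with at least 3 UMIs, was found in 12, 11 and 62 members, and it made up a median of 100%, 98.5% and 100% of the Vmn2r UMIs outside family C. In all there were 10, 8 and 31 different leading receptors. The most frequent was Vmn2r20, in 10 cells, followed by Vmn2r36, Vmn2r40 and Vmn2r73 in 6 each. Vmn2r36 and Vmn2r40 each had at least 3 UMIs in 9 members at 3 months and did so together in 8, and the last 500 bases of their transcripts shared 0% of 91-base windows. Vmn2r36 also led 2 P10 mutant members, without Vmn2r40. Of the Vmn2r44 windows 64.1% stood in a Vmn2r31 transcript, while 0% of the Vmn2r31 windows stood in a Vmn2r44 transcript. Vmn2r6 and Vmn2r7 shared 36.0% to 36.4% of such windows. Reads of Vmn2r44, Vmn2r6 and Vmn2r7 thus could not always be told from those of the other gene of the pair. Across the classes used next, 0% of the Vmn2r1 windows stood in a Vmn2r2 to Vmn2r7 transcript, while 2.60% (Vmn2r7) to 22.9% (Vmn2r2) of the windows of those genes stood in a Vmn2r1 transcript.

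Family C receptors, the partners of the selected receptors, gave 148, 50 and 1390 UMIs, or 9.69%, 5.26% and 15.2% of Vmn2r UMIs. The order of the libraries turned when cells were thinned to 1000 UMIs, with 8%, 15.9% and 12.7%, and at Vmn2r of 0.1% of UMIs or more the shares were 8.80%, 4.23% and 15.05%. A cell was put in the Vmn2r1 or the Vmn2r2 to Vmn2r7 class when at least 3 family C UMIs were seen and at least 80% came from that side. The Vmn2r1 class held 8, 2 and 13 cells, the Vmn2r2 to Vmn2r7 class 2, 2 and 30 cells, and 1, 0 and 6 cells were mixed, with 4, 8 and 16 below 3 UMIs. Both classes occurred in all libraries, and most of the Vmn2r2 to Vmn2r7 cells were in the 3-month mutant.

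**Figure D4:**
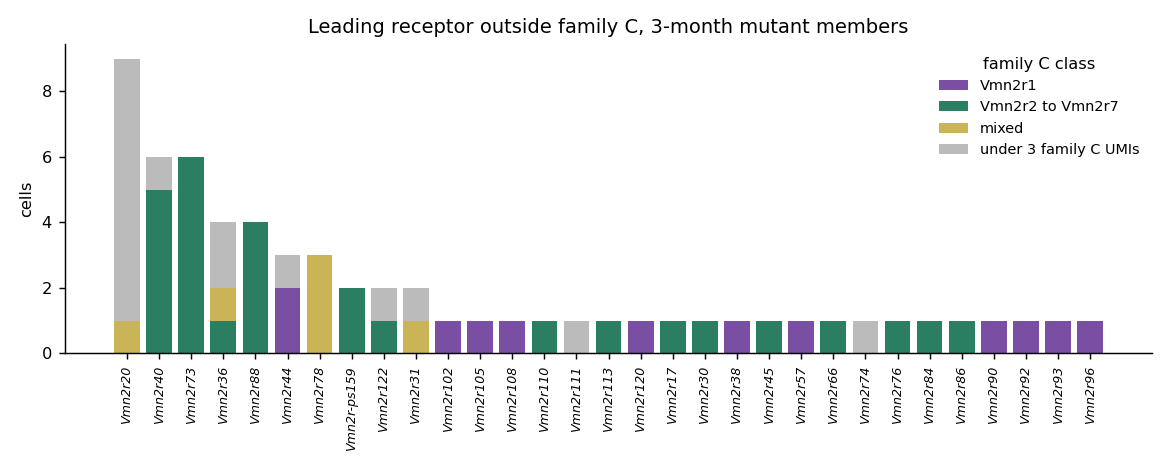
Number of 3-month members (y axis) by leading receptor outside family C (x axis), with bars divided by family C class. All 6 cells led by Vmn2r73 were in the Vmn2r2 to Vmn2r7 class, and 9 cells were led by Vmn2r20.

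H2-Mv genes followed the family C class in the 3-month mutant. H2-Mv had at least 3 UMIs in 24 of 30 cells of the Vmn2r2 to Vmn2r7 class (80%, exact interval 61.4% to 92.3%) and in 4 of 13 cells of the Vmn2r1 class (30.8%, 9.09% to 61.4%). The summed level was 2772 CPM against 247, and the median per cell 2718 against 0. Of the 4 Vmn2r1 cells with H2-Mv, 1 had over 2000 UMIs. Among cells with at least 2000 UMIs, 17 of 20 (85%) and 1 of 9 (11.1%) had H2-Mv. With markers of other tissue cells at 1% of UMIs or less, it was 16 of 19 and 1 of 10. Only this library had 5 cells in both classes, so the difference has no test over libraries.

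By gene, H2-M10.5 was 966 CPM in the Vmn2r2 to Vmn2r7 class and 0 in the Vmn2r1 class, at least 62.5-fold higher. It was seen in 15 of 30 cells, with 39.8% of its UMIs in 1 cell. H2-M10.3 was 440 CPM against 0, at least 28.5-fold, and was seen in 20 of 30 cells. H2-M10.4 was 839 against 206 CPM, 4.07 times as high (2.93 to 5.80). It was seen in 13 of 30 and 5 of 13 cells, and 36.4% of its UMIs in the Vmn2r2 to Vmn2r7 class lay in 1 cell. H2-M10.1 was 286 CPM, but 87.4% of its UMIs lay in 1 cell. H2-M1 went the other way, with 8 UMIs in 1 Vmn2r1 cell and 0 in the other class. B2m, the partner chain, was 685 and 711 CPM, so it did not follow the H2-Mv genes. The background was 4.52% of 2081 genes past 2-fold higher and 1.11% lower.

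The P10 libraries had too few members for this comparison, but the less mature V2R cells, which the rule left out, were a further set of cells. There, H2-Mv had at least 3 UMIs in 3 of 6 cells of the Vmn2r2 to Vmn2r7 class and 1 of 17 of the Vmn2r1 class in the P10 control, and in 3 of 5 and 1 of 11 in the P10 mutant. Both P10 libraries therefore had the higher share in the Vmn2r2 to Vmn2r7 class. Among P10 control members it was 0 of 8 in the Vmn2r1 class.

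**Figure D5:**
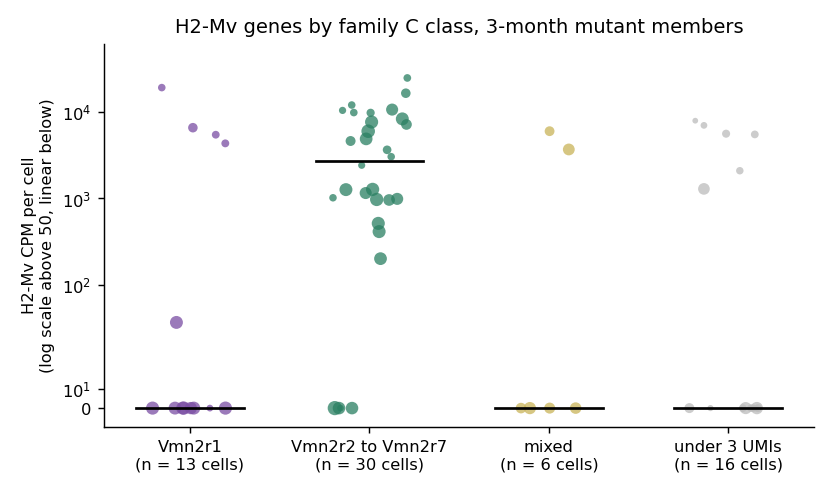
Summed H2-Mv level in CPM per cell (symmetric log axis) for the 3-month members by family C class, with point size growing with the UMIs of the cell and a black line at the median. The Vmn2r2 to Vmn2r7 class has a median of 2718 CPM and the Vmn2r1 class a median of 0.

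Receptor and H2-Mv genes also went together by lead. All 6 members led by Vmn2r73 were in the Vmn2r2 to Vmn2r7 class and held both H2-M10.4 and H2-M10.5. None of the 10 members led by Vmn2r20 held an H2-Mv UMI. The 6 members led by Vmn2r40 were all from the 3-month mutant. Members led by Vmn2r53 were all 3 from the P10 control, and Vmn2r78 led 3 cells that all had mixed family C. Outside H2-Mv, the rule for named genes gave these: Mia3, an ER export factor, was 2.28 times as high and Tmbim6 2.74 times in the Vmn2r2 to Vmn2r7 class, and Gm36028 was 0.658 times. Gnai2 was 478 CPM against 25.8, and Meis2 132 against 0, at least 8.56-fold higher. In the Vmn2r2 to Vmn2r7 class, 1 cell held 49.2% and 69.1% of these UMIs. The 3 Gnai2-rich members at 3 months were all in this class. They held 187 of its 199 Gnai2 UMIs and 49 of its 55 Meis2 UMIs, so both differences lean on 3 cells. Gnao1 was 0.742 and Tfap2e 0.657 times the level in the Vmn2r1 class, so the basal G protein and AP-2ε were within 2-fold between classes.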

How the data were processed

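Each library was a 10x Genomics 3′ gene expression library of dissociated, cryopreserved VNO cells. The deposited values are whole UMI counts per gene and barcode, which the authors made by aligning reads to mm10. Per the file headers this was done with Cell Ranger 4.0.0 for the P10 libraries and 6.0.1 for the 3-month library, while the submitters' processing notes name 4.0.0 for all. Barcodes with under 500 UMIs were not in the files. The study kept barcodes with at most 5% mitochondrial UMIs, and 10% was used here. The members and gene lists were chosen with earlier results of these data known.

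Counts of a class were summed per library. CPM had exact Poisson intervals, ratios a conditional exact binomial interval and shares an exact Clopper-Pearson interval, all at 95%. A count of 0 was taken to allow 3 counts over the group. V2R and V1R sums were tested with edgeR 4.0.16 (R 4.3.3; TMM normalization, low-count filter, library as block), and DESeq2 1.42.0 was an alternative. The method was tested on simulated data with 200 changed genes among 10337. It found 7 of 100 genes changed 2-fold and 59 of 100 changed 4-fold, and called 2 unchanged genes. Named genes were those of the lists, and the 8 genes per direction whose ratio interval lay farthest from 1 (at least 50 UMIs, a UMI in at least 20% of cells and no cell with over 20% of them, mitochondrial and receptor genes left out), or the 12 of smallest adjusted p. Free RNA was not corrected. Cells were thinned with Python 3.11.15 and numpy 2.4.6. V2R and V1R sums of 1 library share their cells' suspension, and their deviations correlated at 0.227, 0.395 and 0.447 over 10337 genes, so the library was kept as the pairing.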

Additional observations from a re-analysis of the deposited data

Results flagged for a closer look

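For 3 genes the V2R over V1R ratio lay on opposite sides of 1 in the libraries compared, in both the P10 and the age comparison. The difference between the libraries was not tested, since each group has 1 library. Tfap2e was 246 times as high in V2R as in V1R P10 control members, 0.803 times in P10 mutant and 1.15 times in 3-month members. Gnai2 had ratios of 0.0600, 1.10 and 0.245 in the same order. B2m had ratios of 3.61, 0.933 and 1.23 in the same order. In the P10 mutant the counting intervals of all 3 ratios covered 1. They were 0.636 to 1.003 for Tfap2e, 0.990 to 1.22 for Gnai2 and 0.708 to 1.21 for B2m. The interval of Tfap2e at 3 months (0.942 to 1.39) covered 1 as well, so the side of 1 is not settled for these values. With the receptor family at 0.1% of UMIs or more, each gene lay on 1 side in all 3 libraries: Tfap2e was 145, 509 and 229 CPM in V2R against 0.375, 468 and 194 in V1R cells, Gnai2 84.7, 1590 and 92.9 against 2499, 1892 and 1485, and B2m 677, 197 and 733 against 137, 139 and 549. In the P10 mutant, 4 of 12 members held most of the Gnai2 UMIs.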

How the results depend on the processing

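Of the summary results, 75 recomputed values stayed within their limits, 28 moved, and 5 counts of genes called rose and 2 fell past them. Among single genes, 988 stayed, 311 moved, 135 newly passed and 3 no longer passed. The number of genes past 2-fold depended on the cells and the minimum. For the P10 mutant over the P10 control, 418 genes became 64 with a mitochondrial limit of 5%, 230 with at least 10 receptor UMIs, 260 with a Vmn2r share of 95%, 1107 and 89 with minima of 20 and 200 UMIs, 82 with Vmn2r at 0.1% of UMIs and 731 without the Gnai2-rich members. For the 3-month over the P10 mutant, 979 became 315, 588, 620, 2032, 283 and 354 under the first 6 of these. The V2R share was 17.9% in the P10 control at the mitochondrial limit of 5% and also without the Gap43 and Stmn2 limit, 22.8% in the P10 mutant without that limit, and 48.8% at 3 months after thinning. The family C share was 8% (P10 control), 15.9% (P10 mutant) and 12.7% (3 months) after thinning, and 9.67% in the P10 mutant at the limit of 5%. Members with a Tfap2e UMI were 60%, 91.7% and 58.5% without thinning, and as low as 7.69% at 3 months in 20 other draws. Gnai2-rich members at 3 months were 1 at a limit of 0.3%, and with Vmn2r at 0.1% they were 2 in the P10 mutant and 1 at 3 months.

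For V2R over V1R, edgeR called 1 gene, DESeq2 188, edgeR without a count filter 1123, 548 at the mitochondrial limit of 5% and 596 with the receptor family at 0.1% of UMIs. Without the replicate block, which pairs V2R and V1R sums of 1 library, 0 genes were called (1232 at an unadjusted p under 0.05). Leaving out 1 library gave 0 to 1007 calls. The Tfap2e value ranged from −0.10 without the P10 control, where it changed direction, to 2.15 without the P10 mutant (log2).

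On the log2 scale, these ratios past 2-fold changed direction. For the P10 mutant over the control they were Hspb1 (−0.85 at the limit of 5% and −2.42 at 0.1% Vmn2r), Chga (0.10) and Calr (−0.51) at 0.1% Vmn2r. For 3 months over the P10 mutant they were, at the limit of 5%, Slc17a6 (−0.040), Snap25 (−0.0087), Calr (0.60) and Hspb1 (1.81), and at 0.1% Vmn2r, Chga (−0.12), Sdf2l1 (−0.10), Kirrel3 (−0.54) and Hspb1 (1.59). Ratios within 2-fold changed sign in 9 genes for the P10 mutant over the control (Calb2, H2-M10.3 up to 6.41, Hspa5, Kirrel3, Manf, Sdf2l1, Tmbim6, Vmn2r7 and Xbp1) and in 3 for 3 months over the P10 mutant (Calb2, Hspa5 and Tfap2e up to 0.50). The causes were not tested. The settings with Vmn2r or the receptor family at 0.1%, without Gnai2-rich members and at other Gnai2 limits were chosen after seeing the data. The family C test over libraries was not run, since only 1 library could enter it. The class shares and the H2-Mv shares by class stayed within their intervals under the alternatives run. The number of cells limits the P10 results, with 27 members, and at 3 months 26 of 65 members had under 2000 UMIs.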

Other observations

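In the P10 control, the genes with the most uneven counts among the members, by Fano factor of counts scaled per cell, were Malat1 (106), Meg3 (58.5), Fth1 (54.0) and the keratin gene Krt17 (50.8), followed by Hspb1, Cd74, Mt1, Abl1, Krt8 and Krt18 at 29.3 to 34.5. A control member held 137 UMIs of the odorant receptor gene Olfr640 and 24 UMIs of H2-M10.3, with mixed family C receptors and no leading V2R. Vmn1r UMIs in all members came to 10, 6 and 7 per library, and formyl peptide receptor UMIs to 1, 17 and 40.

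Tfap2e in cells other than neurons was uneven in the mutants. Cells with neutrophil markers at 1% of UMIs or more had 0.395, 397 and 107 CPM in the P10 control, the P10 mutant and the 3-month mutant, and 117 of 569 such cells of the P10 mutant held a UMI. Cells with fibroblast markers had 0.335 CPM in control and 39.5 in P10 mutant tissue. Whether the transgene or endogenous Tfap2e gave these reads cannot be told apart.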
